A study of Mus musculus with 4 samples.

Results

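Glul, Slc1a3, Aqp4, Kcnj10, Car14, Car2, Sox9, Dkk3, Clu and Spc25 were chosen as transcripts of the Müller glia, the radial glial cells that span the retina. They were taken by name from the gene tables of a study of toxin injury in mouse retina. Which cells made each transcript was not tested in this whole tissue. All 10 were found among the 22558 gene symbols of the files, and 3 of them (Glul, Kcnj10 and Sox9) among the 5799 symbols of the shorter file for the injured retina at day 1. The tissue was whole retina, and the animals were about 8 weeks old with C57BL/6 and 129 in their background. Injured mice had the genotype Msi1-CreERT2/+; R26R-DTA/+ (DTA) and the controls the genotype +/+; R26R-DTA/+, so that the controls also carried the toxin allele but no Cre. Retinas were taken at day 5 and day 1 post-injury, which gave 4 libraries, 1 per group: DTA at day 5, control at day 5, DTA at day 1 and control at day 1.

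R26R-DTA makes the A fragment of diphtheria toxin, which blocks protein synthesis, in cells where Cre has been active. CreERT2 is a Cre that acts only when a ligand is bound, and here it follows Msi1, the gene of the RNA-binding protein Musashi-1, which several retinal cell types make, Müller glia and photoreceptors among them. Neither the agent that activated the Cre nor the number of mice behind a library is given in the sources used here.

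Müller glia keep the fluid around retinal neurons constant. They take up glutamate from synapses and turn it into glutamine, drain potassium and water towards vessels and vitreous, and hydrate carbon dioxide from photoreceptor metabolism to bicarbonate. After injury they become reactive, and in that state genes of homeostasis and genes of reactivity can move apart.

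Levels are given in FPKM, which divides a gene's fragments by its transcript length and by the size of the library, so that genes can be set side by side. Differences are taken on log2(FPKM + 1). With 1 library per group there is no replicate spread and no test, and the calls of higher and lower rest on size. A difference had to reach 1, the FPKM had to reach 5 in 1 of the libraries compared and, for DTA against control, the 2 controls had to differ by less in that gene. In bulk retina, fewer Müller glia and less RNA per cell cannot be told apart.

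Depth, estimated from the smallest steps in FPKM, was about 28.9 M (mega) fragments for DTA and 35.7 M fragments for control at day 5, and about 99.1 M fragments for DTA and 74.2 M fragments for control at day 1. The control libraries differed in more than the day. The summed FPKM of 10 lens markers was 226 in control at day 5 and 1328 in control at day 1, and that of 11 pigment epithelium markers was 47.9 in control at day 5 and 184 in control at day 1. Xist, a transcript of female cells, had 53.7 FPKM in control at day 5 and 0.00596 in control at day 1. Hence day, dissection and sex cannot be told apart in the difference between the controls.

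Promoter windows ran from 250 bases before to 50 bases after the start of the gene. They were taken from RefSeq (build GRCm38.p6) for 5 of the 10 genes. Shown are those of Glul and Spc25, the members with the largest day 5 differences, and that of Slc1a3, which works beside Glul in glutamate recycling and differed little. Capitals mark CCAAT on either strand, the box bound by NF-Y, and also TTTGAA in Spc25, an element found in promoters of mitotic genes, and AGAACA in Slc1a3, a partial site of the glucocorticoid receptor.
Glul (chr1:153899679-153899978, plus strand): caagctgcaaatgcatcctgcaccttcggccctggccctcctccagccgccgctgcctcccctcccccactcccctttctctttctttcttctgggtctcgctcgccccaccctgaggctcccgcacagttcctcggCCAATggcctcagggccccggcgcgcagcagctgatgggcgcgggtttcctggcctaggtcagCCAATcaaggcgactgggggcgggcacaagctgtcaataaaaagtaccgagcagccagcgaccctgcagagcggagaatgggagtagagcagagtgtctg
Spc25 (chr2:69206164-69206463, minus strand): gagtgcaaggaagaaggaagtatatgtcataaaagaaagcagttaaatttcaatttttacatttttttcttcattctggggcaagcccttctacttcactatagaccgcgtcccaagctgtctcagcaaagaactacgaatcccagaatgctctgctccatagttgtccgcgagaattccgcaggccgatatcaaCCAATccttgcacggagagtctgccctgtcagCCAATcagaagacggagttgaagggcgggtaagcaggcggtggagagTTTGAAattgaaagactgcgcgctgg
Slc1a3 (chr15:8710758-8711057, minus strand): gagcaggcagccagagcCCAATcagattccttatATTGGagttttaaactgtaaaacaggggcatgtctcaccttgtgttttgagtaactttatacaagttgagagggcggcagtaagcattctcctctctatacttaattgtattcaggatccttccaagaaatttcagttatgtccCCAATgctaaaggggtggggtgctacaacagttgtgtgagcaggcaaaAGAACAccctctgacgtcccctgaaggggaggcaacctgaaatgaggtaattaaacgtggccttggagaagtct

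CCAAT was present in 4 of the 5 windows (Glul, Slc1a3, Kcnj10 and Spc25) and in 37.4% of the 32851 windows of the table. AGAACA was present in Slc1a3, Kcnj10 and Car14 and in 19.0% of all windows. TTTGAA stood in Spc25 alone among the 5, with its first base at position 25 after the start, and in 17.9% of all windows. ACAAT, the core bound by Sox factors, was present in Slc1a3 (31.0% of all windows), as were TTCNNNGAA, a STAT element (8.30%), and TATAAA (13.6%). Both strands were searched and none of these matches overlapped another. Such matches are letters in a window and not shown sites of binding. No window was available for Car2, Dkk3, Sox9 and Clu. Aqp4 was left out of the search, so the shares among members do not cover it.

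At day 5 the 10 genes did not move as a block. Glul and Spc25 were called lower in DTA, Sox9 and Clu stood above both controls without reaching the size rule, and the other 6 stood below both controls by smaller amounts. Among all 9883 genes at 5 FPKM or more, 1.77% were called lower and 6.75% higher by the same rule, against 2 and 0 of the 10 members. The median difference of the members was -0.41 (from -0.79 to -0.16 over the scalings, pseudocounts and controls tried), with members from -3.10 to 0.73, while that of all these genes was 0.26, so the median gene lay above its control level on the deposited scale. A level below both controls was seen in 8 of the 10 members and in 20.3% of all genes. Low levels were not particular to the members. Below the day 5 control stood all 12 amacrine, horizontal and ganglion cell markers and all 13 rod and cone markers with an estimate. So did 5 of 9 bipolar cell markers, 11 of 20 other genes of Müller glia and 0 of 12 microglial and macrophage markers. A level above both was seen in 2 of the 10 members and in 63.3% of all genes.

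**Figure D1:**
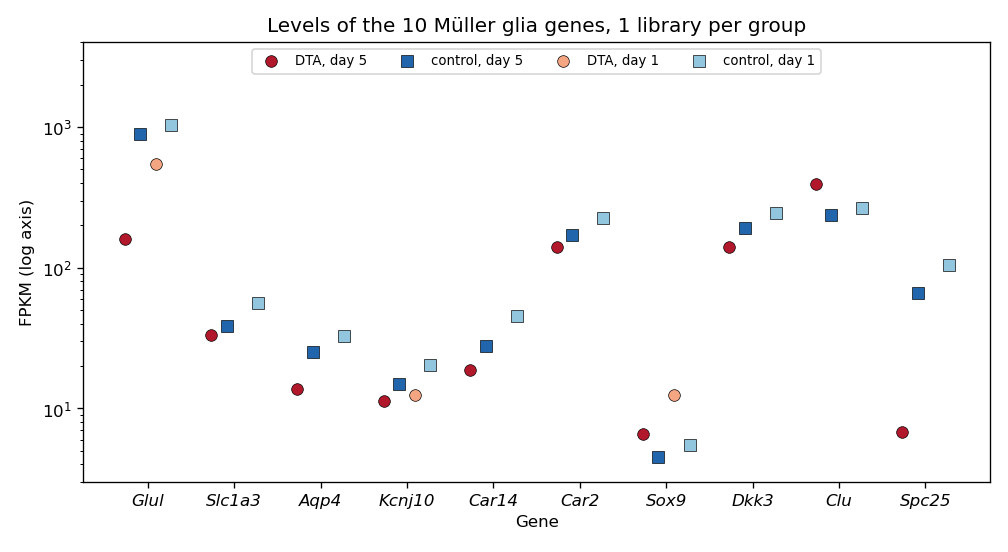
FPKM (log axis) of each of the 10 genes in the 4 libraries, with circles for DTA and squares for control; each point is 1 library. Glul stood at 159 FPKM in DTA and 888 in control at day 5, Clu at 392 and 236, and only Glul, Kcnj10 and Sox9 have a point for DTA at day 1.

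In glutamate recycling, the enzyme and the transporter differed in size. Glul (chromosome 1, 155747075 to 155756844, build mm9, as are all positions from here on) encodes glutamine synthetase, which joins ammonia to glutamate and is found in the retina mainly in Müller glia. It stood at 159 FPKM in DTA and 888 in control at day 5, and at 550.0 in DTA and 1044 in control at day 1. Both DTA levels lay below both control levels. Its level in DTA was 5.59-fold lower at day 5, a difference of -2.47, and 1.90-fold lower at day 1, a difference of -0.92 that is under the size rule. The 2 controls differed by -0.23 (day 5 minus day 1).

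Slc1a3 (chromosome 15, 8584124 to 8660807) encodes GLAST, the glutamate transporter of Müller glia. It stood at 33.4 FPKM in DTA and 38.3 in control at day 5, and at 56.3 in the day 1 control. The DTA library was the lowest of the 3, but its difference from control at the same day (-0.19) was smaller than that between the controls (-0.54). Within a library, where no scaling enters, there were 4.76 FPKM of Glul for each FPKM of Slc1a3 in DTA and 23.2 in control at day 5, and 18.5 in the day 1 control.

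In water and potassium handling, Aqp4 showed the larger day 5 difference. Aqp4 (chromosome 18, 15547903 to 15562193) encodes the water channel of glial endfeet. It stood at 13.9 FPKM in DTA and 25.1 in control at day 5, and at 33.0 in the day 1 control. Its DTA level was 1.81-fold lower than control at day 5 (-0.81), and the control difference was -0.38. The size rule was met when the day 1 control (-1.19) or the mean of both controls (-1.004) was the comparison.

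Kcnj10 (chromosome 1, 174271341 to 174304216) encodes Kir4.1, the potassium channel that Müller glia use to take up and release potassium. It stood at 11.4 FPKM in DTA and 15.0 in control at day 5, and at 12.4 in DTA and 20.3 in control at day 1. Each DTA level lay below each control level. The difference was -0.37 at day 5, against -0.41 between the controls, and -0.67 at day 1. Which of the first 2 is larger in size depends on the scaling, since after median ratio scaling they were -0.59 and -0.36. Against the day 5 control, the day 1 DTA library differed by -0.26, so the size of the day 1 value rests on which control is used.

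The carbonic anhydrases, which interconvert carbon dioxide and bicarbonate, stood below control at day 5 by amounts near those between the controls. Car14 (chromosome 3, 95701723 to 95708562) is a membrane-bound form that faces the extracellular space, and it stood at 18.9 FPKM in DTA and 27.8 in control at day 5, and at 45.4 in the day 1 control. The difference was -0.53 at day 5 and -0.69 between the controls, the largest control difference of the 10. Its locus overlaps Aph1a, on the other strand, by 491 bases; Aph1a stood at 22.3 FPKM in DTA and 18.4 in control at day 5, and the sources used here do not give whether counting used the strand. Car2 (chromosome 3, 14886426 to 14900770) is the cytosolic form, and it stood at 140 FPKM in DTA and 172 in control at day 5, and at 227 in the day 1 control. Its difference was -0.30 at day 5 and -0.40 between the controls. On the deposited scale the day 5 difference was thus the smaller in both genes, but after median ratio scaling it was the larger, at -0.76 against -0.63 for Car14 and -0.54 against -0.34 for Car2. Both genes followed the same order, with DTA lowest and the day 1 control highest.

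Of the genes of identity and secretion, Sox9 and Clu stood above control, and Dkk3 and Spc25 below. Sox9 (chromosome 11, 112643524 to 112649071) encodes a transcription factor of Müller glia and of retinal progenitors. It stood at 6.63 FPKM in DTA and 4.50 in control at day 5, and at 12.5 in DTA and 5.53 in control at day 1. Both DTA levels lay above both controls, and the day 1 level was the highest of the 4. The day 1 differences take the shorter file to be normalised over its whole library, which no source used here states. At day 1 the difference of 1.05 was called higher, 1 of 3 members measured against 2.06% of 2623 genes, and none of the 3 was called lower, against 0.61% of genes. Of the 3, Glul and Kcnj10 in DTA at day 1 lay below both controls, as did 20.4% of genes, and Sox9 lay above both, as did 50.1%. At day 5 the difference was 0.47, and Sox9 in DTA was 1.89-fold lower than in DTA at day 1. These DTA libraries also differed in a lens transcript, with Cryba1 at 1.89 FPKM at day 5 and 264 at day 1. Their depths were about 28.9 M and 99.1 M fragments, and Xist has no value in DTA at day 1. Day, dissection and sex therefore cannot be told apart in that comparison.

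The size of the Sox9 call at day 1 lies close to the threshold. It was 1.30 against the day 5 control, and it lay below 1 with a pseudocount of 5 (0.74), with scaling on 3 housekeeping genes (0.96) and with scaling to the sum without photoreceptor, lens, pigment epithelium and abundant genes (0.998). Relative to Kcnj10 in the same library, Sox9 stood at 0.582 in DTA and 0.300 in control at day 5, and at 1.01 in DTA and 0.272 in control at day 1. These ratios do not give the direction of either gene. By their own differences from control, Sox9 stood higher and Kcnj10 lower on each day. The ratio of Glul to Kcnj10 was 14.0 in DTA and 59.3 in control at day 5, and 44.5 in DTA and 51.4 in control at day 1. By their own differences at day 1, Glul (-0.92) and Kcnj10 (-0.67) both stood lower, and the ratio changed little.

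Clu (chromosome 14, 66587320 to 66600382) encodes clusterin, a secreted chaperone and regulator of complement. It stood at 392 FPKM in DTA and 236 in control at day 5, and at 264 in the day 1 control. The DTA level was the highest of the 3 and 1.66-fold the day 5 control, a difference of 0.73 under the size rule. Clu and Glul changed places in order. Clu stood at 2.46 FPKM for each FPKM of Glul in DTA at day 5, against 0.265 in control at day 5 and 0.253 in the day 1 control.

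Dkk3 (chromosome 7, 119259533 to 119302571) encodes a secreted glycoprotein of the Dickkopf family, which includes inhibitors of Wnt signalling. It stood at 140 FPKM in DTA and 192 in control at day 5, and at 244 in the day 1 control. The difference of -0.46 at day 5 was a little larger in size than that between the controls (-0.34).

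Spc25 (chromosome 2, 69031952 to 69044247) encodes a subunit of the Ndc80 complex, which ties chromosomes to spindle microtubules in mitosis. It stood at 6.80 FPKM in DTA and 65.8 in control at day 5, and at 105 in the day 1 control. The DTA library lay far below both controls, 9.67-fold below that of the same day, a difference of -3.10 and the largest of the 10. The authors' interval for the DTA value ran from 5.92 to 7.68 FPKM and that for the control from 62.6 to 69.1, and these intervals hold no spread between mice. Spc25 was also among the members that differed most between the controls (-0.67).

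The other subunits of that complex did not have Spc25's level in control retina, nor its direction at day 5. Ndc80 stood at 0.196 FPKM in DTA and 0.0192 in control at day 5, Nuf2 at 1.11 FPKM in DTA and 0.151 in control, and Spc24 at 0.334 FPKM in DTA and 0.0909 in control. In the list of 12 genes of the complex and of mitosis, all 12 stood above control at day 5, with a median of 0.58 that the pseudocount sets (0.15 with a pseudocount of 5 and 2.001 with 0.1), and none was called or reached 5 FPKM in either library. The summed level of the 12 was 8.52 FPKM in DTA and 1.21 in control at day 5, and 1.39 in the day 1 control. Birc5, which encodes the mitotic protein survivin, had the largest of these differences (1.33), at 1.79 FPKM in DTA and 0.108 in control, and would be called with a floor of 1 FPKM. The other 11, at 0.19 to 0.87, were under the size rule whatever the floor, on log2(FPKM + 1).

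**Figure D2:**
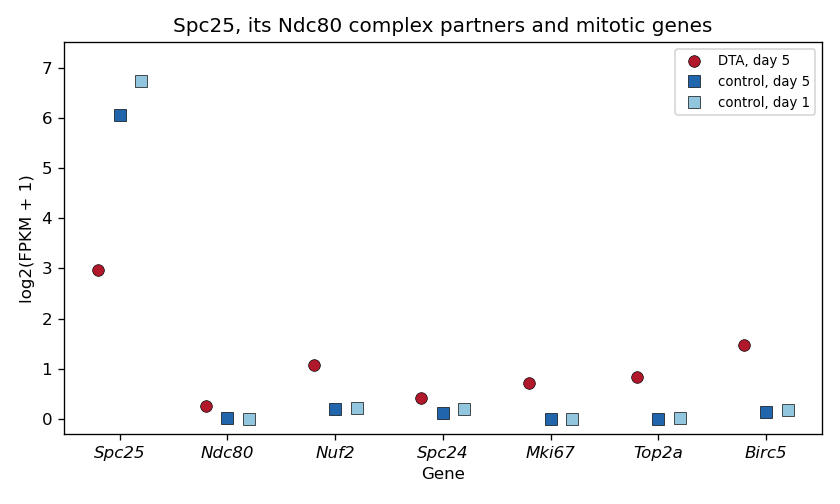
log2(FPKM + 1) of Spc25, of the other 3 subunits of the Ndc80 complex and of 3 mitotic genes in DTA and control at day 5 and in the day 1 control; each point is 1 library. Spc25 is the only 1 of the 7 that stood lower in DTA (difference -3.10), while Ndc80, Nuf2 and Spc24 differed by 0.23, 0.87 and 0.29.

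The control retinas differed across the whole group. All 10 members had their lower control level at day 5, as did 60.9% of 9321 genes at 5 FPKM or more. The members ranged from -0.17 for Clu to -0.69 for Car14, with a median of -0.39 against -0.06 for all genes. A difference of -0.5 or less was seen in 3 members (Car14, Spc25 and Slc1a3) and in 5.51% of all genes. None of the 10 reached a size of 1 in either direction, which 1.72% of genes did as lower and 0.858% as higher.

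In 4 members (Slc1a3, Kcnj10, Car14 and Car2) the day 5 difference between DTA and control was smaller in size than that between the controls on the deposited scale, as in 27.2% of all genes. This held for Slc1a3 alone after median ratio scaling and after scaling to the sum without photoreceptor, lens, pigment epithelium and abundant genes, and for Sox9 alone after housekeeping scaling. On the deposited scale, for Glul the day 5 difference was 10.7 times as large as that between the controls, for Spc25 4.65 times, for Clu 4.42 times, for Aqp4 2.13 times, for Sox9 1.91 times and for Dkk3 1.33 times. After housekeeping scaling these were 22.8 times for Glul, 6.11 for Spc25, 6.02 for Clu, 4.17 for Aqp4, 0.938 for Sox9 and 3.50 for Dkk3. The day 5 control enters both differences, so they are not independent. In the 8 members with lower levels in DTA at day 5, that library was lowest, the day 5 control next and the day 1 control highest, an order that 12.7% of all genes showed. With the day 1 control as the comparison for day 5 DTA, 4 members were called lower (Glul, Spc25, Aqp4 and Car14) in place of 2. That comparison also crosses day, dissection and sex, which cannot be told apart from the toxin in it.

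**Figure D3:**
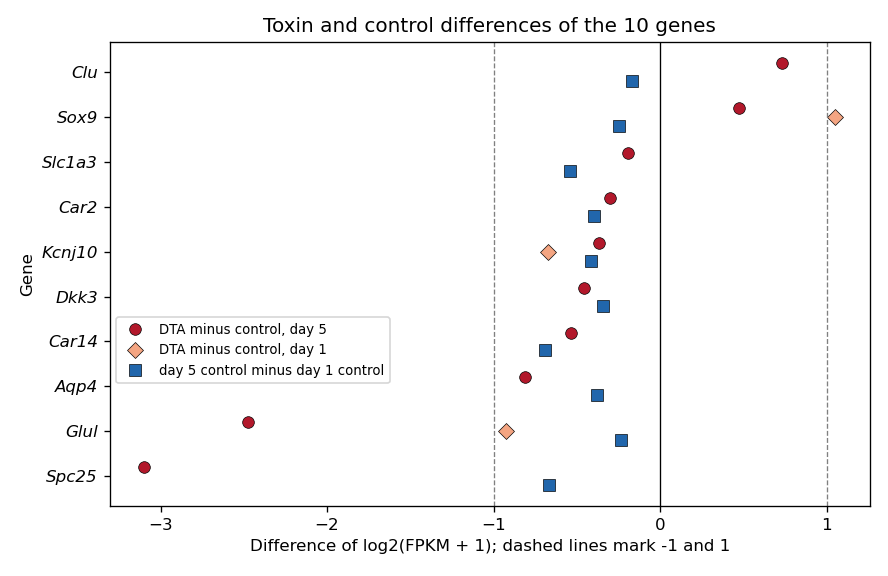
Difference of log2(FPKM + 1) for each gene, DTA minus control at day 5 (circles) and day 1 (diamonds, 3 genes) and day 5 control minus day 1 control (squares), with dashed lines at -1 and 1. The squares all lie below 0, from -0.69 to -0.17, and the circles of Glul (-2.47) and Spc25 (-3.10) lie beyond the lower line.

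Lens, pigment epithelium and other transcripts moved with the controls beside these genes. Lower in the day 5 control were all 10 lens markers, 8 of them called (median -2.18, Cryaa at 105 FPKM in control at day 5 and 604 in control at day 1), 10 of 11 pigment epithelium markers, 5 of them called (median -1.28, Rpe65 at 2.69 FPKM in control at day 5 and 16.0 in control at day 1), and all 5 red blood cell markers, 2 of them called (median -1.23). All 9 bipolar cell markers were lower as well, with no call (median -0.48), while 12 amacrine, horizontal and ganglion cell markers had a median of 0.04. Of 6 astrocyte markers 5 were lower (median -0.20). Gja1, the gap junction protein connexin 43, was called, at 0.976 FPKM in control at day 5 and 8.79 in control at day 1. In DTA, Gja1 stood at 1.17 FPKM at day 5 and 1.24 at day 1, so it too was high in the day 1 control alone. At day 5 the lens sum was 51.1 FPKM in DTA and 226 in control, and the pigment epithelium sum was 22.9 in DTA and 47.9 in control. The part of these tissues and cells in the members' differences was not tested.

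Other genes of Müller glia differed in both directions. Of 20 such genes, 3 were called higher and 1 lower in DTA at day 5, with a median of -0.03. Lower was Rlbp1, which encodes the retinaldehyde carrier CRALBP, at 49.3 FPKM in DTA and 133 in control (-1.41). Higher were Cp (1.91), which encodes the ferroxidase ceruloplasmin, Crym (1.71), which encodes a thyroid hormone binding protein, and Vim (1.20), the intermediate filament vimentin. Between the controls, 18 of the 20 stood lower at day 5 (median -0.39). Gpx3, a secreted glutathione peroxidase, was called lower, at 3.60 FPKM in control at day 5 and 39.0 in control at day 1. In DTA, Gpx3 stood at 2.61 FPKM at day 5 and 3.17 at day 1, so it was high in the day 1 control alone. At day 1, 5 of the 20 were measured. Of these, Gpx3 and Col9a1 (-1.002) were the 2 called lower, against 0.61% of genes, and 0 were called higher.

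The functional partners of the members differed unevenly. None of 10 genes of glutamate and glutamine handling was called at day 5 (median -0.03), with the largest differences in Glud1 (0.46), glutamate dehydrogenase, and Slc38a1 (-0.43), a glutamine transporter. Of 12 genes of potassium and water handling 2 were called lower (median -0.12), among them Aqp1, another water channel, at 13.2 FPKM in DTA and 55.7 in control. Aqp1 stood at 41.4 FPKM in the day 1 control, a control difference of 0.42, opposite in sign to that of all 10 members. These lists were drawn by function, and which cells made their transcripts was not tested. None of 13 other carbonic anhydrases and bicarbonate transporters was called (median 0.02), with Slc4a7 at -0.77 and Car8 at 0.73.

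Among 14 glial and progenitor factors, Id3, an inhibitor of helix-loop-helix factors, was called higher (1.11), and the median was -0.04. Sox2 and Sox8, factors of the same family as Sox9, stood at 8.65 and 6.78 FPKM in DTA and at 10.4 and 9.87 in control at day 5. In the day 1 control they stood at 15.2 and 9.02. The difference of Sox2 was -0.24 at day 5 and -0.51 between the controls, that of Sox8 -0.48 and 0.12, and neither gene was called. Both genes lie on chromosomes that the day 1 DTA file does not hold. Of 10 Dickkopf family members and other Wnt inhibitors 1 was called, Kremen1 (1.83), a receptor for Dickkopf proteins, at 36.8 FPKM in DTA and 9.64 in control.

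**Figure D4:**
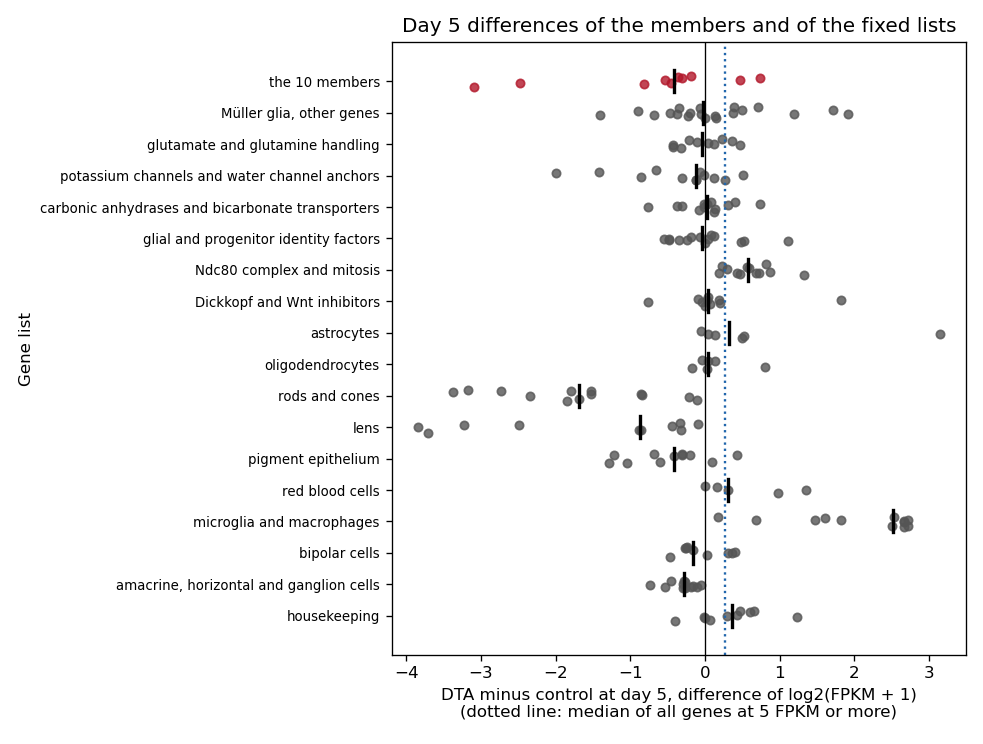
Day 5 difference (DTA minus control, log2(FPKM + 1)) of the 10 members, in red, and of each gene of 17 fixed lists, with a bar at each list's median; the dotted line is the median of all genes at 5 FPKM or more (0.26). The members' median is -0.41, that of rods and cones is -1.69 and that of microglia and macrophages 2.52.

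Markers of other cells that make some of these transcripts were checked. Astrocytes also make Aqp4, Slc1a3 and Glul, and of 6 astrocyte markers Gfap was called, at 68.5 FPKM in DTA and 6.85 in control at day 5, a filament that reactive Müller glia also make. Pax2, which marks retinal astrocytes, stood at 0.166 FPKM in DTA and 0.136 in control. The summed level of the 6 was 83.6 FPKM in DTA and 18.1 in control at day 5, and 26.9 in the day 1 control. Gfap alone made up 68.5 FPKM of the DTA sum, 6.85 of the day 5 control sum and 4.66 of the day 1 control sum. The rise of the sum at day 5 is thus mostly that of Gfap. No marker was at 0. Oligodendrocytes make Car2, and their 6 markers summed to 17.9 FPKM in DTA and 16.5 in control at day 5, and 17.0 in the day 1 control, with Mog at 0.208 and Mag at 0.113 FPKM in DTA at day 5. Microglial and macrophage markers summed to 166 FPKM in DTA and 22.8 in control at day 5, with 9 of 12 called higher. Their part in the members' values was not tested.

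Neurons of the inner retina had no called marker at day 5. The median was -0.16 for 9 bipolar markers and -0.28 for 12 amacrine, horizontal and ganglion cell markers. Below the day 5 control stood 5 of the 9 bipolar markers and all 12 of the others. Of 13 rod and cone markers with an estimate 9 were called lower (median -1.69). Of 10 lens markers 3 were called lower (median -0.87), while none of 11 pigment epithelium markers (median -0.41), 5 red blood cell markers (median 0.31) and 6 oligodendrocyte markers (median 0.04) was called. The lens and pigment epithelium medians moved with the pseudocount and the control used, from -2.83 to -0.27 for lens and from -1.69 to -0.18 for pigment epithelium. Of 10 housekeeping genes Gusb, the lysosomal enzyme beta-glucuronidase, was called higher (1.23), and their median was 0.37. After scaling on the inner retinal markers the difference was -2.21 for Glul, -2.87 for Spc25, -0.56 for Aqp4 and 0.996 for Clu, which is under the size rule, where the median of all genes was 0.51.

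The genes with profiles most like the leading members were ranked by Euclidean distance between centred log2(FPKM + 1) values. For Glul, over 4 libraries and 2456 other genes, the nearest were Mef2c (distance 0.428), Pitpnm3 (0.443) and Hist1h1c (0.453). Mef2c, a transcription factor, stood at 3.66 FPKM in DTA and 19.0 in control at day 5, and at 14.7 in DTA and 20.6 in control at day 1. For Spc25, over 3 libraries and 9069 genes, they were Pisd-ps1 (0.648), Opn1sw (0.711) and Reep6 (0.726). Opn1sw, the short wavelength cone opsin, stood at 17.9 FPKM in DTA and 195 in control at day 5, and at 157 in the day 1 control. Its day 5 difference was -3.38, near that of Spc25 (-3.10). Which cells the Spc25 transcripts came from was not tested. For Aqp4, over the same 3 libraries, Tmlhe (0.0164), Mmd2 (0.0240) and Ppara (0.0338) were nearest. A distance grows with the size of the change and the number of libraries, so these are not compared between members. With so few libraries, a small distance describes these values only.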

How the data were processed

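Per the labels' protocols, RNA was isolated from retinas with Sepazol and sequencing libraries came from Illumina's mRNA-seq preparation kit. The authors deposited FPKM per gene with interval bounds and a status, per the file headers. The build is mm9, and Cufflinks 2.1.1, bcl2fastq 1.8.4 and CASAVA 1.8.2 are named in the submitters' processing notes; the sources used here give no aligner. Lines with status FAIL or HIDATA (at most 26 per file) were read as missing, and loci of 1 symbol were summed. The day 1 DTA file has 5847 lines against 23021 in the others and was used as deposited. Its FPKM were taken as normalised over the whole library, which no header or label states and on which every day 1 difference rests; over 5783 shared genes FPKM summed to 101093 in DTA and 100232 in control at day 1.

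Of 33 member values, 16 lie above their own upper bound, so bounds were used only where named. The files give no counts; depth was estimated from genes with 1 annotated transcript of over 1500 bases. Differences, calls and scalings were computed in Python 3.11.15 (pandas 2.3.3). The call rule was also run on simulated data, with noise drawn only from the interval bounds of the day 5 control. That simulation holds no spread between mice, so it does not show how often the rule errs in these libraries.

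The members, the 17 lists (186 genes) and the rule for named genes were chosen with earlier results of these data known. Named were all members, up to 4 called genes per list or the 2 largest differences, and the 3 nearest profiles of 3 members; any other list gene named was chosen after its values were seen. A few list genes are not reported here.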

Additional observations from a re-analysis of the deposited data

How the results depend on the processing

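No paired analysis was possible because each group is 1 library, and for the same reason no replicate could be left out. Of 13 alternatives listed in advance, 7 change the members' day 5 differences (the pseudocounts, scalings and other controls) and 6 left them as they were. Each of the 10 members kept its sign under those 7, and Slc1a3 alone changed sign (0.07) under a scaling on inner retinal markers that was added after seeing the data. Glul ranged from -2.85 to -2.21 and Spc25 from -3.76 to -2.58, and both stayed called. Deposited scaling leaves the median of all genes at 0.26 at day 5; it was 0.04 after median ratio scaling, -0.09 after housekeeping scaling and 0.51 after inner retinal scaling, so small differences depend on it. The members' median ranged from -0.79 to -0.16, and in 10 of the 17 lists the median changed sign under at least 1 alternative. The lens median was lower than that of rods and cones with a pseudocount of 0.1 (-2.15 for lens), against the other day's control (-2.83) and against the mean of both controls (-1.83). Against the control of the other day, 4 members in place of 2 and 30 list genes in place of 15 were called lower at day 5. At day 1 the 1 higher call (Sox9) became 0 with a pseudocount of 5, with the sum without photoreceptor, lens, pigment epithelium and abundant genes, and with housekeeping scaling, under which 1 member (Glul, -1.03) was called lower in place of 0. Aqp4 met the size rule at day 5 after median ratio (-1.04) and housekeeping scaling (-1.16). Between the controls, inner retinal scaling left 1 member at -0.5 or less in place of 3, and Clu at 0.02. The cause was not tested for any of these. With a floor of 1 FPKM or no floor, 18 list genes in place of 16 were called higher, Birc5 among them.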
